A study of Rattus norvegicus with 23 samples.

Results

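The neurotrophin and activity-regulated genes of neurons were followed through every library of the series, with 4 members: Arc (ENSRNOG00000043465), Bdnf (ENSRNOG00000047466), Ntrk2 (ENSRNOG00000018839) and Vgf (ENSRNOG00000001416). They were chosen by identifier, out of the 32494 rat genes in the deposited tables. All 4 were among the 14035 genes that passed the filter on low counts. The names come from the list that paired them with their identifiers for this work. The deposited tables hold identifiers only, and 0 of the 32494 matched the reference table of 47357 genes, so neither the markers of neurons nor those of other brain cells could be looked up.

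The cells were aggregates of dissociated Sprague Dawley rat brain, taken at embryonic day 15 and grown for 14 days as agitated 3D cultures, a kind of culture known to hold neurons and glia. Sepiapterin aggregates received 120 ng/ml sepiapterin and were sampled after 6, 12 and 24 hours (T6, T12 and T24), and control aggregates received phosphate-buffered saline and were sampled at the same times and at 0 hours (T0). Sepiapterin is a pteridine from which cells make tetrahydrobiopterin, which nitric oxide synthases and the enzymes of dopamine and serotonin synthesis need as a cofactor. There were 3 libraries in each of 7 groups, plus 2 repeat libraries of T12 controls, 23 in all.

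By label, T6 and T12 libraries were prepared in a first batch and T24 libraries with the 2 repeats in a second, while no batch is given for T0. For samples 10 and 11 the titles and the file headers contradict each other over which library is the repeat. Groups follow the titles, and values by file header are given where a result turns on them. Reads in genes numbered 16991417 to 26588314 per library. In whole aggregates, fewer cells of a type and less RNA per cell cannot be told apart.

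BDNF, the protein made from Bdnf, is a secreted neurotrophin that binds TrkB, the receptor tyrosine kinase encoded by Ntrk2. Neuronal firing raises transcription of Bdnf through cyclic AMP and calcium signals that act on the factor CREB, and TrkB in turn signals to CREB. Vgf encodes a granule protein of neurons and endocrine cells that is cut into secreted peptides, and nerve growth factor and BDNF are known to induce it. Arc is an immediate-early gene whose messenger RNA travels to dendrites and whose protein takes part in the removal of AMPA receptors from synapses. Astrocytes carry a shortened form of TrkB, and gene counts do not separate it from the full-length receptor.

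Promoter windows of the 4 genes were sought, to look for the cyclic AMP response element, the DNA site that CREB binds. None was held for Arc or Ntrk2, so these cannot be compared with Bdnf and Vgf. RefSeq promoter windows of the rat build GRCr8, from 250 bases before to 50 bases after a transcription start, were held for 2 of the 4 genes, with 1 window for Vgf and 6 for Bdnf. Both strands were searched for the full element TGACGTCA and for its shorter core TGACG, which the full element contains. The full element stands in 1.83% of all 33469 windows in the table and the core in 21.2%. The Vgf window (chr12:25276971-25277270, minus strand) has the full element beginning 90 bases before the start, and 1 of the 6 Bdnf windows (chr3:116637608-116637907, plus strand) has the core, on the opposite strand, beginning 35 bases before its start. For Bdnf, 1 of 6 windows is no more than the share of all windows with the core (21.2%). Capitals mark these letters.
Vgf: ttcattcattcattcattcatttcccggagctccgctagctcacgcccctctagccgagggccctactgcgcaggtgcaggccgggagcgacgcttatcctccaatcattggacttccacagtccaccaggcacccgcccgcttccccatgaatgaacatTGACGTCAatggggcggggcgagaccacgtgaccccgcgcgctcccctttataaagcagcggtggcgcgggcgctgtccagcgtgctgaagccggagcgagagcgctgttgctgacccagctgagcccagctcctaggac
Bdnf: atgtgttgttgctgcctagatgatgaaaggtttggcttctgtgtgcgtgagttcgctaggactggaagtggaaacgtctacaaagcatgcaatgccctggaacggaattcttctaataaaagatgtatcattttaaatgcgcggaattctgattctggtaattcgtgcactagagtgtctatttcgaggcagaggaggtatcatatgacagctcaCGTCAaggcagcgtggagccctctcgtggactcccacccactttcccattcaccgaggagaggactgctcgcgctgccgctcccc
The deposited counts are sums over a whole gene and do not tell which Bdnf start was used. A match is a description of the letters and not a measured site. A link between a match and the sepiapterin differences below was not tested.

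After 24 hours Vgf and Bdnf were higher in sepiapterin aggregates than in controls, by 1.6-fold and 1.52-fold. Of the 4 genes, 2 were called at an adjusted p under 0.05 (edgeR quasi-likelihood test, Benjamini-Hochberg adjustment over all 14035 genes), where 4.17% of all genes tested were called and 2.07% were called higher. Ntrk2 was 1.12-fold higher and Arc 1.21-fold higher, and neither passed the test. The 4 log2 fold changes had a median of 0.44, beside 0.01 over all genes tested. The 4 genes were picked with earlier results of these libraries in view, so this count is a description of them.

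Bdnf, the ligand, stood at 9.63, 9.06 and 10.7 CPM (reads scaled to library size, corrected by trimmed means) with sepiapterin at T24, against 6.84, 6.69 and 5.88 CPM in controls. Each sepiapterin library lay above each control. The means were 9.8 ± 0.831 and 6.47 ± 0.517 CPM (SD, n = 3 each), the log2 fold change was 0.6 ± 0.14 (SE) with a 95% interval of 0.32 to 0.88, and the adjusted p was 0.02 in edgeR. These values rest on 151 to 206 reads with sepiapterin and 102 to 128 in controls. For the control with 102 reads the exact Poisson interval is 83.2 to 124 reads, which covers counting error only. With 1 library left out in turn the log2 fold change stayed between 0.53 and 0.65. The call was lost without control replicate 2 (adjusted p 0.056), control replicate 3 (0.084), sepiapterin replicate 1 (0.12) or sepiapterin replicate 2 (0.055), by edgeR.

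Ntrk2, the receptor of BDNF, stood at 927, 854 and 830 CPM with sepiapterin at T24, against 794, 774 and 761 CPM in controls. Here too the groups did not overlap. The log2 fold change was 0.16 ± 0.05 (SE), with a 95% interval of 0.06 to 0.26 and an adjusted p of 0.052 in edgeR, just outside the threshold. DESeq2 gave an adjusted p of 0.024 and limma voom 0.011 for the same contrast. Over all 14 alternatives the adjusted p ran from 0.011 to 0.34, and 6 called the gene. By file header edgeR called it too, at a log2 fold change of 0.16 (adjusted p 0.036). It also did so with both libraries of samples 10 and 11 summed (adjusted p 0.037). Without sepiapterin replicate 3, the lowest of the treated libraries, the log2 fold change was 0.2 and the gene was called (adjusted p 0.016 in edgeR). The other 5 fits with 1 library left out did not call it, and without sepiapterin replicate 1, the highest, the value was 0.12 (adjusted p 0.34).

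Vgf, the secreted peptide precursor, stood at 39.8, 37.7 and 33.6 CPM with sepiapterin at T24, against 25.6, 20.4 and 23.4 CPM in controls. All sepiapterin libraries again lay above all controls. The means were 37.1 ± 3.14 and 23.2 ± 2.58 CPM (SD, n = 3 each). The log2 fold change was 0.68 ± 0.13 (SE), with a 95% interval of 0.41 to 0.94 and an adjusted p of 0.011 in edgeR. Of all genes tested, 1.61% had a higher log2 fold change than Vgf and 2.04% a higher one than Bdnf. Leaving out 1 library gave log2 fold changes of 0.59 to 0.75. The call was lost without control replicate 2 (adjusted p 0.052), sepiapterin replicate 1 (0.096) or sepiapterin replicate 2 (0.055), by edgeR.

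Arc, the dendritic immediate-early gene, stood at 7.57, 6.42 and 7.94 CPM with sepiapterin at T24, against 7.27, 6.18 and 4.61 CPM in controls. The groups overlapped. The log2 fold change was 0.28 ± 0.19 (SE), and its 95% interval of -0.12 to 0.68 includes both no difference and the size found for Bdnf. The adjusted p was 0.44 in edgeR. The controls, with 80 to 136 reads, had a coefficient of variation of 22.2%, against 9.58% from counting error alone. The log2 fold change was 0.12 without control replicate 3, the lowest control, and 0.44 without control replicate 1, the highest. At T24 the sepiapterin libraries thus lay above all controls for 3 of the 4 genes, against 11.5% of all genes tested.

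**Figure D1:**
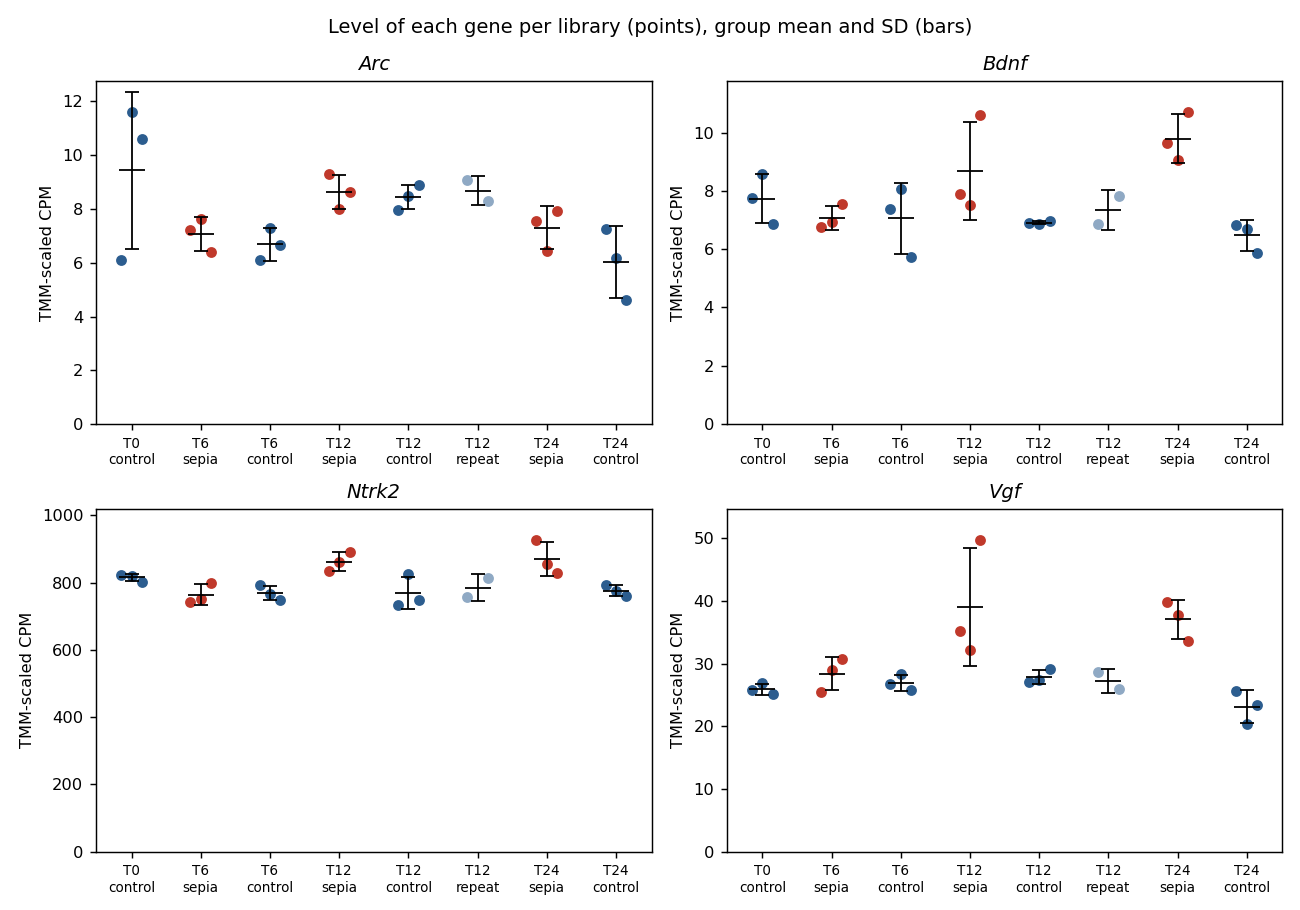
CPM of Arc, Bdnf, Ntrk2 and Vgf (y axes, from 0) in each of the 23 libraries, by time and treatment (x axis, sepia for sepiapterin, repeat for the repeat libraries of T12 controls). Points are libraries, and bars give the group mean and SD. For Vgf the T24 sepiapterin libraries lie at 33.6 to 39.8 CPM and the T24 controls at 20.4 to 25.6 CPM, while for Arc the 2 groups overlap.

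At 12 hours all 4 log2 fold changes were above 0, with a median of 0.25 beside 0 over all genes, and none of the 4 genes was called by edgeR. Only 0.0214% of all genes were called there. Before adjustment 3 of the 4 genes had a p under 0.05, as did 15.9% of all genes tested. DESeq2 and limma voom each called Ntrk2 and Vgf, 2 of the 4, and called 227 and 907 genes in all. Sepiapterin libraries lay above all controls for 3 of the 4 genes by title and for 2 by file header, where 10.6% of all genes did so by title. The share of all genes by file header was not computed. If the file headers are right, 2 of the 3 controls by title come from the second batch. Batch would then be mixed into the values by title at this time.

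Vgf stood at 35.2, 32.2 and 49.7 CPM with sepiapterin at T12, against 27, 27.3 and 29.1 CPM in controls. The repeat libraries of the controls gave 28.6 and 25.9 CPM, below each treated library too. These repeats are second libraries of samples already among the controls, so they do not count as further controls. By title they also belong to the other batch. The log2 fold change was 0.49 ± 0.12 (SE), with a 95% interval of 0.24 to 0.74 and an adjusted p of 0.083 in edgeR, and it was 0.49 by file header too. Sepiapterin replicate 3 held the highest Vgf level of the 23 libraries. Without it the log2 fold change was 0.28 (adjusted p 0.33).

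Bdnf at T12 showed the same library apart. Its levels were 7.9, 7.51 and 10.6 CPM with sepiapterin, against 6.91, 6.85 and 6.96 CPM in controls and 6.85 and 7.82 CPM in their repeats. The log2 fold change was 0.33 ± 0.13 (SE, adjusted p 0.22 in edgeR), and 0.16 without sepiapterin replicate 3 (adjusted p 0.73). By file header it was 0.27 (adjusted p 0.35 in edgeR), and the controls, at 6.85 to 7.82 CPM, overlapped the sepiapterin libraries. The 3 controls differed by a coefficient of variation of 0.83%, well under the 8.37% that counting error alone gives at their mean of 143 reads. Over all genes, sepiapterin replicate 3 lay 0.191 and 0.207 log2 units (root mean square) from the other sepiapterin libraries at T12, which lay 0.164 from each other. The part of that library's general distance in the Bdnf and Vgf values was not tested.

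Ntrk2 stood at 835, 860 and 891 CPM with sepiapterin at T12, against 734, 825 and 749 CPM in controls. Its log2 fold change of 0.17 ± 0.05 (SE, adjusted p 0.11 in edgeR) stood beside 0.16 at T24, and was 0.14 without sepiapterin replicate 3. Control replicate 2, at 825 CPM, came close to the lowest treated library, and the other library of that sample gave 813 CPM. Arc stood at 9.29, 8 and 8.62 CPM with sepiapterin and at 7.98, 8.49 and 8.89 CPM in controls. Its log2 fold change was 0.03 (95% interval -0.32 to 0.38), and -0.02 by file header.

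At 6 hours the groups overlapped for each of the 4 genes. None was called by edgeR, DESeq2 or limma voom, none had an unadjusted p under 0.05, and 0% of all genes were called (301 had an unadjusted p under 0.05). No gene of the 4 had all sepiapterin libraries above all controls, against 5.28% of all genes tested. Bdnf stood at 6.76, 6.93 and 7.54 CPM with sepiapterin, against 7.37, 8.08 and 5.72 CPM in controls, a log2 fold change of 0 with a 95% interval of -0.27 to 0.27. Vgf stood at 25.5, 28.9 and 30.7 CPM with sepiapterin, against 26.7, 28.3 and 25.8 CPM in controls. Its log2 fold change was 0.07, with an interval of -0.18 to 0.33. The difference from T24 is tested by the interaction below, which edgeR did not call for Vgf. Ntrk2 differed by -0.01 (interval -0.11 to 0.09) and Arc by 0.08 (interval -0.28 to 0.44).

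**Figure D2:**
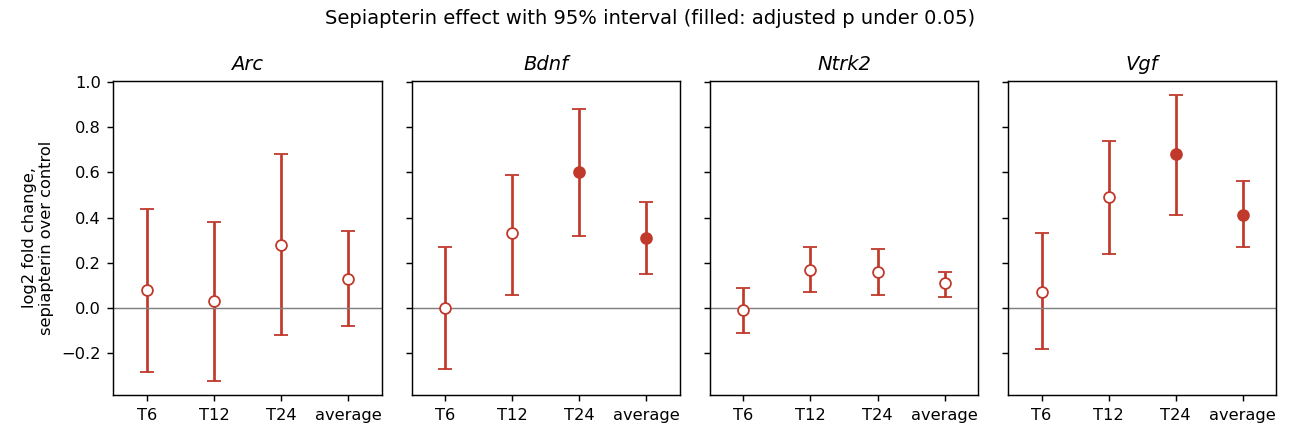
Log2 fold change of sepiapterin over control (y axis) for Arc, Bdnf, Ntrk2 and Vgf at T6, T12 and T24 and averaged over the 3 times (x axis), with 95% intervals from the edgeR fit. Filled points have an adjusted p under 0.05, namely Bdnf and Vgf at T24 and in the average.

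Averaged over the 3 times, Vgf and Bdnf were again the genes called, 2 of 4, both higher with sepiapterin, where 1.03% of all genes were called and 0.606% were called higher. Vgf had a mean log2 fold change of 0.41 ± 0.07 (SE, adjusted p 0.01 in edgeR) and kept its call in all 25 alternatives run, with adjusted p-values of 5.3e-06 to 0.038. Bdnf had 0.31 ± 0.08 (SE, adjusted p 0.048 in edgeR) and kept its call in 9 of 25. By file header its value was 0.28 with an adjusted p of 0.07. Leaving out single libraries of any time moved the Bdnf value between 0.25 and 0.35, and 14 of those 18 fits lost the call, among them each fit without a T24 library. Ntrk2 had 0.11 ± 0.03 (SE, adjusted p 0.055 in edgeR) and was called in 8 of the 25. Arc had 0.13 ± 0.1 (SE, adjusted p 0.54).

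**Figure D3:**
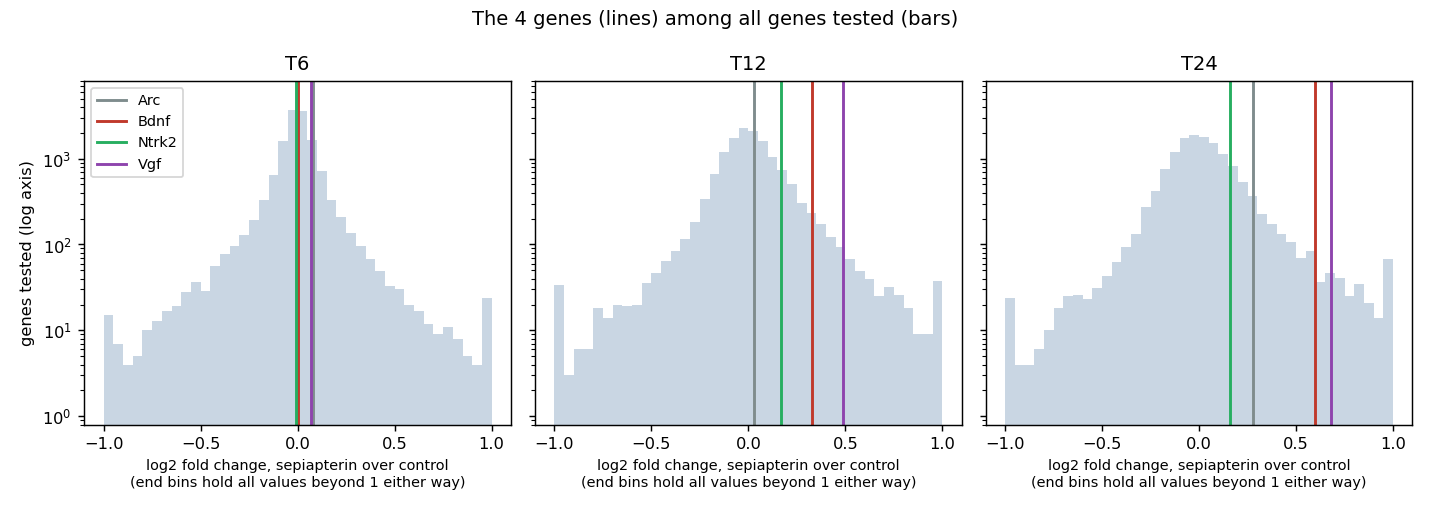
Number of genes (y axis, log scale) by log2 fold change of sepiapterin over control (x axis, bins of 0.05, the end bins holding all values beyond 1 either way) at T6, T12 and T24, for all 14035 genes tested. Coloured lines mark the 4 genes, which lie between -0.01 and 0.08 at T6 and between 0.16 and 0.68 at T24.

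Whether the effect itself differed between times was tested as an interaction. For none of the 4 genes did it pass. Between T24 and T6 the effect on Vgf differed by 0.6 ± 0.17 (SE) on the log2 scale and that on Bdnf by 0.6 ± 0.19. The adjusted p-values were 0.2 and 0.22 in edgeR, where 0% of all genes were called and 1662 had an unadjusted p under 0.05. Unadjusted p-values were under 0.05 for Vgf, Bdnf and Ntrk2, DESeq2 called 0 of the 4 (and 34 genes in all), and limma voom called Vgf (adjusted p 0.017) among 516 genes in all. Between T24 and T12 the differences were 0.18 ± 0.17 for Vgf and 0.27 ± 0.19 for Bdnf (SE). Those for Ntrk2 and Arc were 0 ± 0.07 and 0.25 ± 0.25 (SE). None of the 4 had an unadjusted p under 0.05 in edgeR, where 12.8% of all genes did. None was called by the other tools, and edgeR called 0.235% of all genes. Between T12 and T6, 0 of the 4 genes and 0% of all genes were called by edgeR, with an unadjusted p under 0.05 for Ntrk2 and Vgf and for 1049 genes in all. DESeq2 called 0 genes and limma voom 8 in that comparison, none of the 4.

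Among sepiapterin aggregates alone, T12 was compared with T6, both from the first batch and free of the doubt over samples 10 and 11. Vgf rose 1.37-fold (log2 fold change 0.45 ± 0.12, SE, adjusted p 0.035 in edgeR) and Ntrk2 rose 1.12-fold (0.17 ± 0.05, adjusted p 0.043). These 2 of the 4 genes were called, where 4.37% of all genes were called and 2.89% were called higher. The log2 difference was 0.29 ± 0.13 for Bdnf and 0.28 ± 0.17 for Arc (SE), and their adjusted p-values were 0.19 and 0.36. The call of Vgf was lost without T12 replicate 3 (log2 fold change 0.24, adjusted p 0.21) and without T6 replicates 1 (adjusted p 0.17) or 2 (adjusted p 0.1), by edgeR. It was lost with no filter on low counts too (adjusted p 0.073). That of Ntrk2 was lost in 5 of 6 such fits, all but the one without T6 replicate 3, with log2 fold changes of 0.15 to 0.2 over the 6. With library size as the only scaling Ntrk2 also lost its call, at 0.14 (adjusted p 0.075).

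The corresponding step in controls, T12 against T6, gave a call for none of the 4 genes by edgeR, DESeq2 or limma voom, where edgeR called 4.67% of all genes. No unadjusted p of the 4 was under 0.05 in edgeR, where 21.4% of all genes had such a p. Vgf differed by 0.04 ± 0.12 (SE), Ntrk2 by -0.01 ± 0.05, Bdnf by -0.04 ± 0.13 and Arc by 0.33 ± 0.17 (95% interval -0.03 to 0.69). Since a call in treated and not in control aggregates does not show a difference between them, the interaction between T12 and T6 given above is the test of it, and it was not passed. The controls used here also enter the sepiapterin contrast at T12.

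In controls Arc fell 1.4-fold at T6 relative to T0. It stood at 6.09, 7.31 and 6.67 CPM in T6 controls, against 6.1, 11.6 and 10.6 CPM in T0 controls, a log2 fold change of -0.48 ± 0.17 (SE, adjusted p 0.048 in edgeR). It was the 1 gene of the 4 called in that comparison, where 21.6% of all genes were called and 10.7% were called lower. T0 replicate 1 lay at the level of the T6 controls while T0 replicates 2 and 3 lay above each of them. That library also stood 0.292 and 0.318 log2 units (root mean square over all genes) from the other T0 libraries, which lay 0.18 apart. Without it the log2 fold change was -0.71 (adjusted p 0.00016). The call was lost in each of the 5 fits without another library, namely T0 replicate 2 (-0.32) or 3 (-0.39) and T6 replicates 1, 2 or 3 (-0.41, -0.55 and -0.48), with adjusted p-values of 0.067 to 0.23 by edgeR. It was lost as well with library size as the only scaling (adjusted p 0.062) and with no filter (0.088). Time and batch cannot be told apart in this step. Bdnf, Ntrk2 and Vgf differed by -0.12 ± 0.13, -0.08 ± 0.05 and 0.06 ± 0.12 (SE).

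Controls at T24 were compared with the T12 libraries titled as repeats, which share the second batch by title. None of the 4 genes was called by edgeR with TMM scaling and the filter on low counts, where 5.54% of all genes were. Arc stood at 7.27, 6.18 and 4.61 CPM at T24, against 9.06 and 8.31 CPM in the repeats. The log2 fold change was -0.53 ± 0.15 (SE, adjusted p 0.052 in edgeR). By file header it was -0.44 (adjusted p 0.23). Arc was called by edgeR with library size as the only scaling (adjusted p 0.044) and with no filter on low counts (adjusted p 0.0067). Limma voom called Arc and Vgf among 2261 genes in all, and DESeq2 called 692 genes and none of the 4 (it gave Arc no adjusted p). Both genes had an unadjusted p under 0.05 in edgeR, as did 23% of all genes tested. Without T24 control replicate 1 edgeR called both as well, with log2 fold changes of -0.69 for Arc and -0.32 for Vgf. Vgf stood lower in T24 controls by -0.24 ± 0.09 on the log2 scale, Bdnf by -0.18 ± 0.13 and Ntrk2 by -0.02 ± 0.06 (SE, adjusted p-values of 0.14, 0.43 and 0.87 in edgeR). Sepiapterin at T24 and T12 lie in different batches by label, so their levels are given side by side without a test.

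The repeated libraries of samples 10 and 11 were compared with the other libraries of the same samples. With sample number as a block, edgeR called 18.7% of all genes between them, and none of the 4. A fit of 4 libraries is a weak test, so this does not show that the 4 genes were unmoved. None of the 4 genes had an unadjusted p under 0.05 in edgeR either, where 29.8% of all genes did. DESeq2 and limma voom were not run on these 4 libraries. The log2 differences were 0.08 ± 0.12 for Arc, 0.09 ± 0.13 for Bdnf, 0.02 ± 0.02 for Ntrk2 and 0.01 ± 0.07 for Vgf (SE).

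Ordered by group mean, Bdnf was highest in T24 sepiapterin aggregates (9.8 CPM) and then in T12 sepiapterin (8.66), T0 controls (7.73), T12 repeats (7.33), T6 sepiapterin (7.08), T6 controls (7.06), T12 controls (6.91) and T24 controls (6.47). Only the last neighbours in that order, T12 and T24 controls, had ranges over libraries that did not overlap. They nearly touched, at 6.85 CPM for the lowest T12 control and 6.84 CPM for the highest T24 control. By title these groups lie in different batches. The share of all genes with gaps of this kind was not computed, for this gene or those below. Ntrk2 had its highest means in the same 2 groups, T24 sepiapterin (870 CPM) and T12 sepiapterin (862), whose ranges overlapped. A gap without overlap separated them from T0 controls (815), whose batch is not given and whose highest library stood at 823 CPM. All lower neighbours down to T6 sepiapterin (764) overlapped.

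Vgf was highest in T12 sepiapterin (39 CPM) and T24 sepiapterin (37.1), whose ranges overlapped. A gap without overlap led from T24 sepiapterin down to T6 sepiapterin (28.4), and these 2 groups lie in different batches by label. After it T12 controls (27.8), T12 repeats (27.2), T6 controls (27), T0 controls (25.9) and T24 controls (23.2) formed an unbroken run. Arc had another order, led by T0 controls (9.44 CPM), T12 repeats (8.69), T12 sepiapterin (8.63) and T12 controls (8.45). Next came T24 sepiapterin (7.31), T6 sepiapterin (7.08), T6 controls (6.69) and T24 controls (6.02). Only T12 controls and T24 sepiapterin were neighbours that did not overlap, at 7.98 CPM for the lowest and 7.94 CPM for the highest library. By title they lie in different batches. T0 controls, at 6.1 to 11.6 CPM, overlapped every other group.

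Across the 23 libraries, treated ones included, Bdnf, Ntrk2 and Vgf correlated with each other more than any did with Arc. Pearson's r of log2(CPM + 0.5) was 0.77 for Bdnf with Vgf, 0.75 for Bdnf with Ntrk2 and 0.7 for Ntrk2 with Vgf, and Spearman's rho was 0.74, 0.71 and 0.55. With the 2 libraries farthest from the median of the first gene left out, r was 0.7, 0.75 and 0.51, and with those farthest for the second gene left out it was 0.64, 0.63 and 0.51. For Arc, r was 0.28 with Bdnf, 0.18 with Ntrk2 and 0.25 with Vgf. These are descriptions with no p, since libraries of a group share their treatment and time. Measured as deviations from group means, r for Bdnf with Vgf was 0.53, for Bdnf with Ntrk2 0.37 and for Ntrk2 with Vgf 0.39. Over the 14 control libraries alone the same pairs had 0.35, 0.53 and -0.08, while Arc had 0.47 with Bdnf, 0.49 with Vgf and 0.24 with Ntrk2. Among controls alone Arc thus had a higher r with Bdnf and with Vgf than Bdnf had with Vgf.

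**Figure D4:**
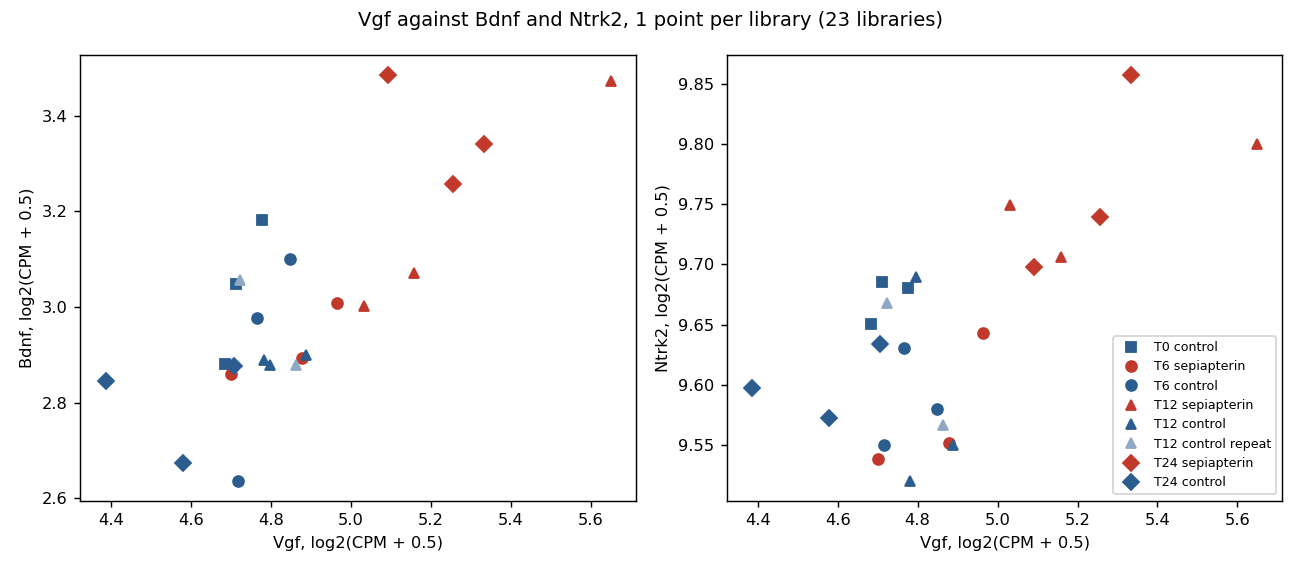
Vgf (x axes) against Bdnf (left, y axis) and Ntrk2 (right, y axis), each as log2(CPM + 0.5), with 1 point per library and marker shapes for the 4 times. In each panel the T12 and T24 sepiapterin libraries (red) reach the highest Vgf values, led by T12 sepiapterin replicate 3 at 49.7 CPM.

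Among 12236 other genes with a mean of at least 1 on that log2 scale, only 1 was more like Bdnf over the 23 libraries than Vgf was, and 10 were more like Vgf than Bdnf was. Likeness was taken over libraries that include the T24 groups, so the T24 differences given next are not independent of it. The gene most like Bdnf, ENSRNOG00000019604, had an r of 0.78. It was called higher with sepiapterin at T24, by a log2 fold change of 0.36 ± 0.09 (SE, adjusted p 0.034 in edgeR). The gene most like Vgf, ENSRNOG00000001851, had an r of 0.89 and was higher by 0.4 ± 0.11 (SE, adjusted p 0.034 in edgeR). For Ntrk2 it was ENSRNOG00000019832, with an r of 0.89 and a T24 difference of 0.13 ± 0.06 (adjusted p 0.18). For Arc it was ENSRNOG00000008374, with an r of 0.78 and a T24 difference of -0.01 ± 0.04 (adjusted p 0.96). These likenesses, too, include what the libraries share in treatment, time and depth, and the identifiers are not paired with names in the sources used here.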

How the data were processed

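The authors deposited raw read counts per Ensembl gene, 1 table per library, for 23 libraries of polyadenylated RNA (stranded kit, per the labels' protocols). Reads went through cutadapt 1.8, STAR 2.5.2b and HTSeq 0.6.1 on Rnor_6.0, per the submitters' processing notes. Neither source names the strand setting or annotation release, so reads of overlapping genes are uncertain. HTSeq summary lines were left out (14.8 to 17.1% of alignments outside genes, 23.5 to 25% at several places).

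Counts were tested with edgeR 4.0.16 in R 4.3.3 (TMM scaling, filterByExpr with minimum count 10, robust quasi-likelihood fits). One fit of 21 libraries in 7 groups had 14 residual degrees of freedom. T24 controls against T12 repeats came from 8 libraries, including T24 sepiapterin for the estimate of spread. P-values were adjusted by Benjamini-Hochberg across every gene in a fit, and a gene is called under 0.05. SE is of the log2 fold change, and intervals are 95% intervals from the fit. Alternatives used DESeq2 1.42.0 and limma 3.58.1 (voom with quality weights), other scalings and filters, other groupings of samples 10 and 11, and fits without each library. Levels are TMM-scaled CPM over the 23 libraries.

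The members and lists were chosen with earlier results of these data known. The lists of pathway and cell type genes are made of symbols, which matched no identifier, so none was used. By rule, the text names the 4 genes and, of the 3 genes most like each, the first. Nothing in the labels says that replicates are separate cultures, so p-values cover only the spread among libraries, which may be technical. Any 2 libraries of a group differed by more than sampling noise (chi-square per degree of freedom of 2.03 or more).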

Additional observations from a re-analysis of the deposited data

How the results depend on the processing

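Results for the 4 genes were recomputed under other scalings, no filter, DESeq2, limma voom, other groupings of samples 10 and 11, single-time fits and without each library in turn. A group left with 1 library was assumed to vary like the others. Vgf and Bdnf at T24 kept their direction in all 14 alternatives and their calls in 11 and 10, and lost them only without single libraries. The number of the 4 genes called without single libraries ran from 0 to 3 at T24, from 1 to 3 in the average, from 0 to 1 for controls T6 against T0, and from 0 to 2 for sepiapterin T12 against T6 and for controls T24 against T12. DESeq2 and limma voom called 2 at T12. At T24, 3 were called by both tools, with library size only, by file header and with both libraries of samples 10 and 11 summed. By file header the average had 1, while limma voom gave 1 for the effect at T24 minus T6. With library size only and with no filter, 0 were called for T6 against T0, 1 for sepiapterin T12 against T6 and 1 for T24 against T12, where limma voom called 2. The cause was not tested.

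Values near 0 changed sign, none of them called. With library size only, Bdnf and Ntrk2 at T6 were 0.01 and 0. By file header Arc at T12 was -0.02, and for controls T12 against T6 Bdnf was 0.02 and Ntrk2 0. For the effect at T24 minus T12, Ntrk2 was 0.03 by limma voom and 0 with both libraries of samples 10 and 11 summed. Arc with Ntrk2 had an r of -0.07 as deviations. Without single libraries, at T6 Bdnf ran from -0.13 to 0.11 and Ntrk2 from -0.04 to 0.01, and Arc at T12 from -0.03 to 0.08. Ntrk2 at T24 minus T12 ran from -0.05 to 0.03, Arc at T12 minus T6 from -0.13 to 0.01, Bdnf for T6 against T0 from -0.23 to 0, Bdnf and Ntrk2 for controls T12 against T6 from -0.16 to 0.07 and -0.05 to 0.03, and Ntrk2 for T24 against T12 from -0.07 to 0.03.

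The count of all genes called at T24 was 585, and 11 to 1463 without single libraries. Such counts ran from 0 to 309 at T12 (3 with all libraries), 33 to 446 in the average (144), 0 to 567 for the effect at T24 minus T12 (33), 0 to 372 at T24 minus T6 (0), 77 to 1398 for controls T12 against T6 (655), 98 to 561 for sepiapterin T12 against T6 (614) and 22 to 1208 for controls T24 against T12 repeats (757). Of genes called between sepiapterin T12 and T6, 405 were higher and 209 lower, against 282 and 397 with library size only. For controls T6 against T0 the split was 1532 higher and 1503 lower, against 2020 and 1047. In the average it was 85 and 59, against 101 and 47. Replicate numbers were assigned in accession order and pair nothing. Title numbers of treated libraries exceed those of controls of the same time by 95, and the labels do not say that this pairs them. Deviations from group means correlated above 0.1 in 3 of the 9 such pairs (range -0.22 to 0.3), and 4 of 9 treated libraries were most like the control of their own number. Those 3 pairs were the pairs of T24 (0.3, 0.13 and 0.17), where each treated library was most like that control. A replicate block by this offset, chosen after seeing the data, called 2 of the 4 genes at T12 (Ntrk2 and Vgf, among 376), 3 at T24 (Ntrk2 too, among 1203) and 3 in the average (among 755), and none at T6 or between times, with Bdnf at T6 at 0. Samples 10 and 11 pair their libraries by label, and with no replicate block 988 genes differed between them, against 2527 with it.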
